A study of Homo sapiens with 32 samples.

Results

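MDM2, PPM1D, CCNG1, MDM4, RCHY1 and USP7 encode proteins that restrain p53, and several of them are themselves switched on by p53. They were chosen by name, as negative feedback regulators of p53, and make up 6 of the 35587 genes in the deposited matrix; all 6 were high enough to be tested, among 16824 tested genes. p53 is a transcription factor that is kept low in unstressed cells and accumulates after DNA damage. MDM2, a ubiquitin ligase, marks p53 for degradation and is transcribed from a second promoter that p53 binds, so that p53 activity raises the level of its own inhibitor. PPM1D adds a slower arm to the same loop, by removing the phosphate marks that damage kinases place on p53 and on each other.

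RNA was measured in U2OS cells, an osteosarcoma line with wild-type p53, after CRISPR-Cas9 editing. The genotypes were no p53 (KO), heterozygous for the p53 change A347D (HET), homozygous for A347D (HOM) and unedited p53 (WT). A347D lies in the tetramerization domain, through which p53 assembles into its active form. Cells of each genotype received 20 µM etoposide, a topoisomerase II poison that leaves double-strand breaks, or DMSO for 24 h, giving 8 groups of 4 poly-A libraries. The replicates were separate plates, and the number of edited lines or clones per genotype is not in the labels, so p-values measure the spread between plates, and genotype cannot be told apart from line. In bulk RNA, fewer cells with a transcript cannot be told apart from less of it per cell.

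Recovered totals were 18253770 to 24186765 counts per library, apart from 8051382 counts in replicate 2 of HET with etoposide. Replicates 2, 3 and 4 of HOM in DMSO stood apart from the rest: 13 mtDNA-encoded genes took 20.7% to 21.9% of their counts, against 7.87% to 15.2% in the other 29 libraries. Their summed normalized counts were 32019204 to 47279307, against 16165116 to 24683872 in those 29. Results that rest on them are therefore also given with HOM DMSO replicate 1 alone, whose spread is then assumed to be that of the other groups. The mesenchymal markers VIM, COL1A1, SPARC, FN1 and RUNX2 were present in every library, and COL1A2 was low at 1.75 to 54.2 normalized counts. The epithelial markers summed to no more than 226, the endothelial markers to 77.0 and the blood markers to 39.8.

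A gene passed where limma's two-sided test gave an adjusted p under 0.05, with Benjamini-Hochberg adjustment over all tested genes, and the fold change was at least 1.5. Levels are normalized counts, and log2 fold changes are differences of log2(normalized count + 1), given with their SE.

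MDM2 lies on the plus strand at chr12:68808176-68850686 (GRCh38, GENCODE release 29). Its promoters are shown because they carry the known link between p53 and this loop. RefSeq promoter windows (GRCh38.p14), from 250 bases before to 50 after each start, were searched on both strands for the p53 consensus, taken as 2 adjacent decamers with no spacer. The stretch of the second MDM2 promoter at chr12:68808903-68809000 (plus strand) holds 2 matches in capitals, the first with 2 mismatches over its 20 bases and the next with 3, separated by 18 bases:
MDM2 second promoter: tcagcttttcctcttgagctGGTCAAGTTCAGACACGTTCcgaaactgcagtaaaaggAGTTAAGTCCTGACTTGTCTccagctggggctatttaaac
The best match of the first MDM2 promoter, at chr12:68808043-68808122 (plus strand), had 5 mismatches and is in capitals here:
MDM2 first promoter: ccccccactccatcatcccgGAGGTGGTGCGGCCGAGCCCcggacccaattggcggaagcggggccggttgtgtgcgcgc
Also shown are the best matches of PPM1D, at chr17:60599974-60600053 (plus strand), and of CCNG1, at chr5:163437389-163437468 (plus strand). These are the other members that passed between KO and WT in etoposide, and their matches had 4 and 6 mismatches:
PPM1D promoter: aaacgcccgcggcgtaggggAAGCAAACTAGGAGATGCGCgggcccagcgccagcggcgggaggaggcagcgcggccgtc
CCNG1 promoter: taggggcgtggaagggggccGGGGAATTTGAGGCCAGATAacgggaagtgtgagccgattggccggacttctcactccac
A match with at most 2 mismatches was present in 228 of 35116 windows (0.649%), and one with at most 4 in 26.0%. The better MDM2 match begins 94 and 101 bases before 2 RefSeq starts, 747 bases after the GENCODE start of the gene. It lies in the first intron of 7 of 34 MDM2 transcripts and upstream of or outside the other 27, and in no exon. The best matches of MDM4 and RCHY1 had 5 mismatches and that of USP7 had 4. These are descriptions of letters in a short window; binding was not measured, and sites further into the genes were not searched.

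MDM2 rose with etoposide in all 4 genotypes, and how far it rose differed between them. With etoposide its normalized counts were 434, 430, 490 and 562 in KO, 1924, 1927, 1682 and 2077 in HET, 643, 617, 603 and 560 in HOM, and 1687, 1963, 1623 and 1813 in WT. With DMSO they were 313, 252, 255 and 261 in KO, 415, 436, 325 and 433 in HET, 257, 83.6, 124 and 72.2 in HOM, and 354, 388, 188 and 256 in WT. Within each genotype the etoposide libraries all lay above the DMSO libraries. With etoposide the groups formed 2 levels, HET with WT on top and HOM with KO below, with no overlap between the levels; a single KO library (562) reached just above the lowest HOM library (560).

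The MDM2 response was 0.82 ± 0.11 in KO (log2, adjusted p 7.86e-05), 2.24 ± 0.11 in HET (2.37e-08), 2.35 ± 0.36 in HOM (9.63e-04) and 2.63 ± 0.20 in WT (1.13e-06). As ratios of means these were 1.77-fold in KO, 4.73-fold in HET, 4.51-fold in HOM and 5.97-fold in WT. MDM2 thus rose in cells without p53 too, by less than in WT: the KO response minus the WT response was -1.80 ± 0.24 (adjusted p 1.89e-05). The HET response exceeded the KO response by 1.42 ± 0.16 (adjusted p 2.41e-06). HET and WT responses did not differ past the threshold, at -0.38 ± 0.24, with a 95% interval of -0.89 to 0.13. The HOM response rests on the 3 libraries that stood apart, in which MDM2 was at 72.2 to 124, against 257 in HOM DMSO replicate 1. With that replicate alone the HOM response was 1.23 ± 0.12 (adjusted p 3.92e-04).

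**Figure D1:**
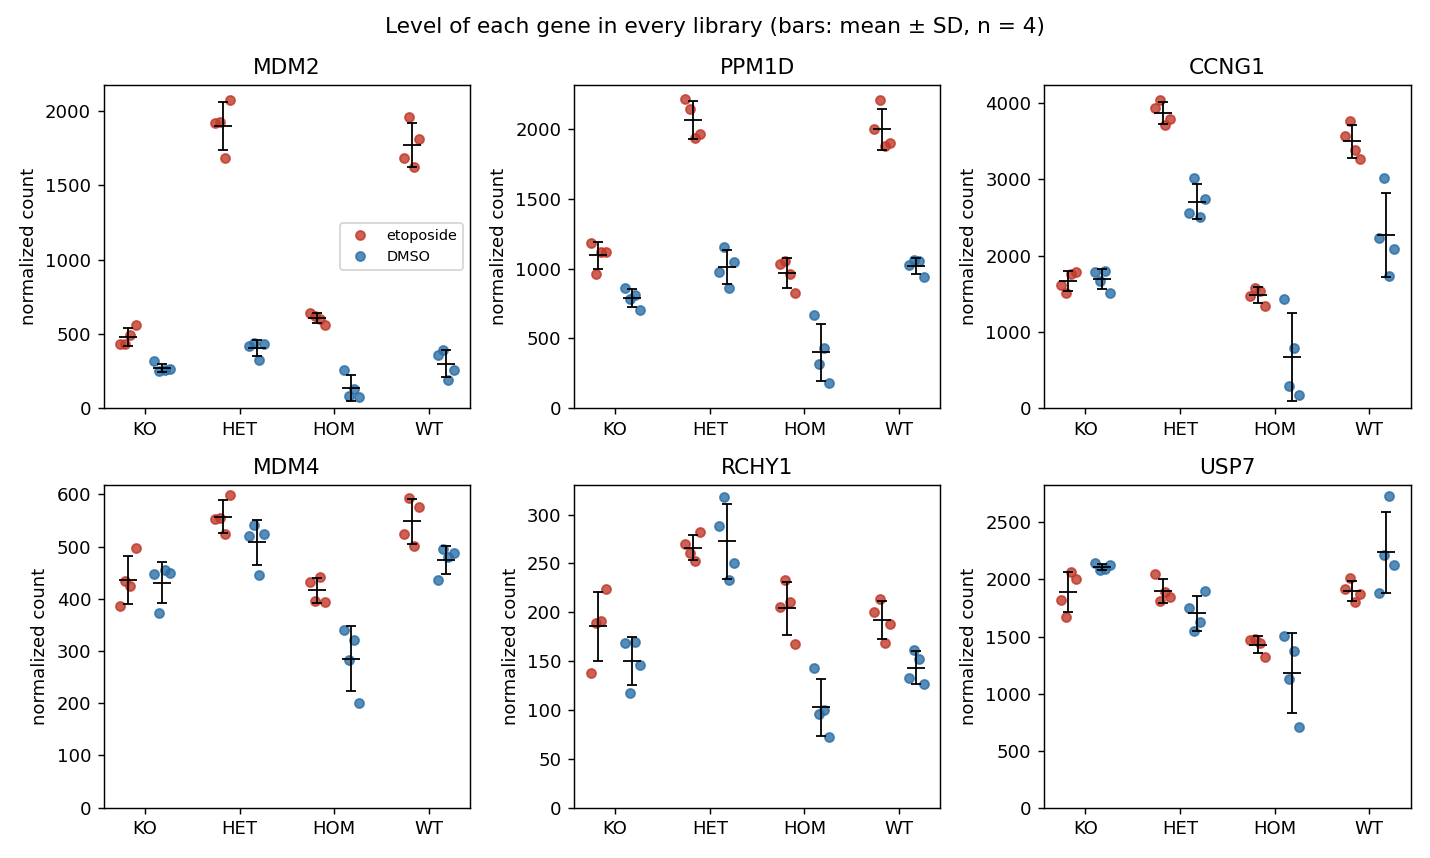
Normalized counts of the 6 genes (linear vertical axis from 0) in every library of the 4 genotypes, etoposide in red beside DMSO in blue; points are single libraries and black marks the mean ± SD of 4. MDM2, PPM1D and CCNG1 reach their highest etoposide levels in HET and WT, and the HOM libraries in DMSO spread widely, CCNG1 from 172 to 1434.

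The difference between the HOM and the other responses changed with those libraries. With all libraries, the MDM2 response in HOM minus that in WT was -0.28 ± 0.43 (adjusted p 0.612), but it was -1.39 ± 0.32 (adjusted p 7.90e-03) with HOM DMSO replicate 1 alone. In the other direction, the HOM response exceeded the KO response by 1.53 ± 0.39 (adjusted p 0.0278), but by 0.41 ± 0.18 (adjusted p 0.329) with replicate 1 alone. Of the 16 libraries in this last comparison, leaving out any 1 of 8 also ended the call, with adjusted p-values of 0.0511 to 0.0644.

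The direct comparison within etoposide does not use the HOM DMSO libraries. MDM2 was lower in KO than in WT by 1.89 ± 0.09 on the log2 scale (log2 fold change -1.89, adjusted p 1.22e-09), at 27.0% of the WT mean. In HOM it was at 34.2% of the WT mean (log2 fold change -1.54 ± 0.07, adjusted p 7.45e-09). In HET it was at 107% of the WT mean, a log2 difference of 0.10 ± 0.08 with a 95% interval of -0.06 to 0.26. HET exceeded KO by 1.99 ± 0.09 and HOM by 1.65 ± 0.07 (adjusted p 1.20e-09 and 9.41e-09). HOM lay above KO by 0.34 ± 0.09, with an adjusted p of 0.0129, which is under the fold threshold; the authors' deposited table gives the same contrast as 0.34 with an adjusted p of 0.326.

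In DMSO, MDM2 levels did not differ past the threshold between KO and WT (log2 -0.09 ± 0.21, 95% interval -0.56 to 0.39). HET lay above WT by 0.48 ± 0.22 (adjusted p 0.0922), and passed at 0.63 (adjusted p 0.0365) without WT DMSO replicate 2. HET lay above KO by 0.57 ± 0.12, under the fold threshold, and passed without KO DMSO replicate 1 (0.64) or without HET DMSO replicate 3 (0.67). HOM was below KO by a log2 fold change of -1.18 ± 0.37 (adjusted p 0.0449) and, short of the threshold, below WT by -1.27 ± 0.41 (adjusted p 0.0639). The authors' deposited DESeq2 tables give these contrasts as -0.98 (adjusted p 1.96e-04) and -1.11 (adjusted p 2.20e-05). With HOM DMSO replicate 1 alone these were -0.07 and -0.15, and neither passed.

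PPM1D, a phosphatase at chr17:60600183-60666280 (plus strand), followed the same grouping as MDM2 with smaller changes. U2OS is known to carry a truncated PPM1D allele, and gene-level values do not tell alleles or isoforms apart. Its normalized counts with etoposide were 1187, 961, 1123 and 1117 in KO, 2217, 2145, 1936 and 1966 in HET, 1032, 1056, 965 and 822 in HOM, and 2005, 2209, 1883 and 1902 in WT. With DMSO they were 860, 785, 813 and 704 in KO, 978, 1155, 864 and 1046 in HET, 667, 315, 429 and 181 in HOM, and 1025, 1060, 1057 and 937 in WT. Every etoposide library of HET and WT lay above every other library.

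The PPM1D response was 0.47 ± 0.09 in KO (log2, adjusted p 6.75e-04, under the fold threshold), 1.04 ± 0.10 in HET (4.14e-06), 1.43 ± 0.35 in HOM (6.77e-03) and 0.97 ± 0.08 in WT (3.71e-06). With HOM DMSO replicate 1 alone the HOM response was 0.53 ± 0.15 and no longer passed. The KO response was smaller than the WT response by a log2 difference of -0.50 ± 0.12 (adjusted p 4.12e-03, under the fold threshold). Within etoposide, PPM1D was at 54.9% of the WT mean in KO (log2 -0.87 ± 0.08, adjusted p 3.89e-07) and at 48.5% in HOM (-1.05 ± 0.09, adjusted p 6.58e-07). In HET it was at 103% of the WT mean (0.05 ± 0.07, 95% interval -0.10 to 0.19). HOM and KO did not differ past the threshold (-0.18 ± 0.09, 95% interval -0.38 to 0.02). In DMSO, KO was below WT by -0.37 ± 0.09 (adjusted p 0.0276), under the fold threshold. HOM in DMSO was below WT by -1.51 ± 0.34 (adjusted p 0.0449), against -0.61 (adjusted p 0.335) with replicate 1 alone; leaving out any WT library, or HOM DMSO replicate 2 or 3, also ended that call, with values of -1.45 to -1.60.

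CCNG1, at chr5:163437569-163446151 (plus strand), encodes cyclin G1, which brings the phosphatase PP2A to MDM2. Its levels with etoposide were 1611, 1505, 1754 and 1789 in KO, 3932, 4041, 3712 and 3798 in HET, 1467, 1578, 1536 and 1341 in HOM, and 3569, 3768, 3383 and 3270 in WT. With DMSO they were 1778, 1663, 1800 and 1511 in KO, 2561, 3011, 2509 and 2742 in HET, 1434, 284, 792 and 172 in HOM, and 2230, 3023, 1727 and 2091 in WT. The KO libraries of both treatments overlapped, whereas in HET and WT each etoposide library lay above each DMSO library.

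The CCNG1 response was -0.02 ± 0.08 in KO (log2, 95% interval -0.19 to 0.15), 0.52 ± 0.08 in HET (adjusted p 1.61e-04, under the fold threshold) and 0.65 ± 0.14 in WT (adjusted p 2.92e-03). The WT value was 0.53, under the fold threshold, without WT DMSO replicate 3, and with all 32 libraries in 1 fit it was 0.65 with an adjusted p of 0.112. In HOM it was 1.60 ± 0.58 (adjusted p 0.0348), and 0.04 ± 0.12 (adjusted p 0.774) with HOM DMSO replicate 1 alone; leaving out any single HOM etoposide library, or HOM DMSO replicate 2 or 4, also ended that call, with log2 values of 1.11 to 1.65. The KO response was smaller than the WT response by a difference of -0.67 ± 0.17 (adjusted p 7.53e-03), which was -0.55 and under the fold threshold without WT DMSO replicate 3, and had an adjusted p of 0.390 with all 32 libraries in 1 fit. Within etoposide, CCNG1 was at 47.6% of the WT mean in KO (-1.07 ± 0.07, adjusted p 2.06e-08) and at 42.3% in HOM (-1.24 ± 0.07, adjusted p 2.61e-08). In HET it was at 111% of the WT mean (0.15 ± 0.06, adjusted p 0.0387, under the fold threshold). HET also lay above KO in DMSO, by 0.68 ± 0.09 (adjusted p 1.67e-04; 0.0980 with all 32 libraries in 1 fit).

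**Figure D2:**
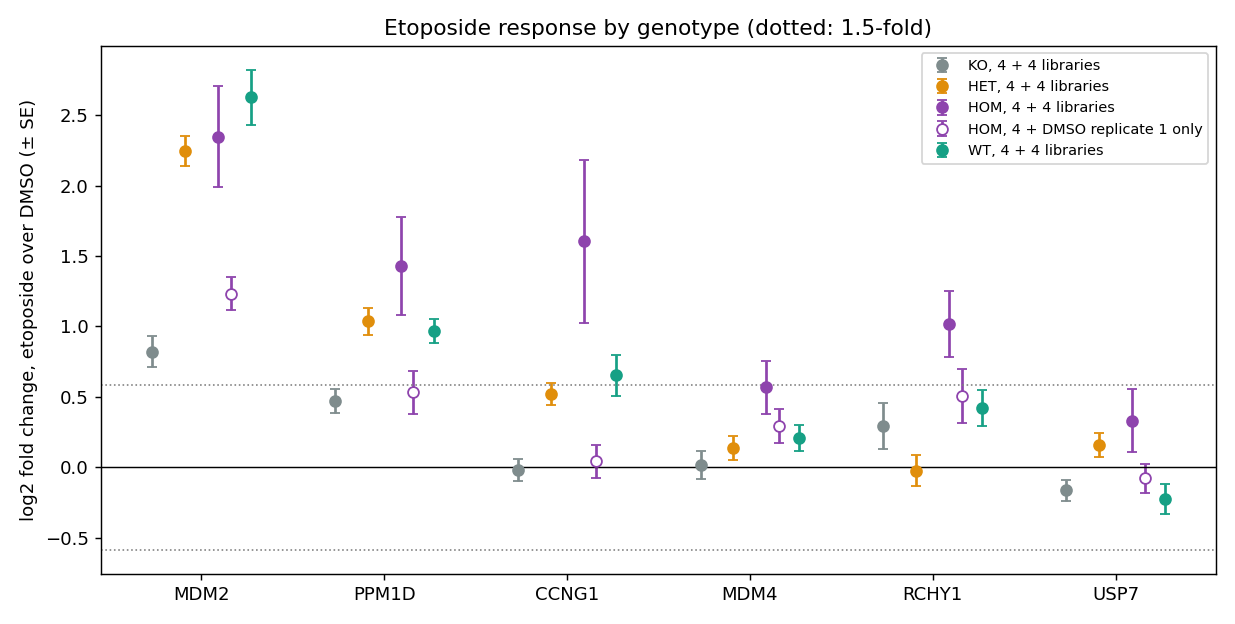
Log2 fold change of etoposide over DMSO (vertical axis, ± SE) for the 6 genes in KO, HET, HOM and WT; open symbols use only HOM DMSO replicate 1, and dotted lines mark 1.5-fold. MDM2 is above the line in every genotype, and the HOM values of MDM2, PPM1D and CCNG1 drop to 1.23, 0.53 and 0.04 with replicate 1 alone.

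MDM4, at chr1:204516379-204558120 (plus strand), encodes a relative of MDM2 that binds p53 and blocks its activity as a transcription factor. Its levels spanned a narrow range. With etoposide it had 387, 433, 425 and 498 normalized counts in KO, 553, 556, 523 and 599 in HET, 432, 396, 442 and 395 in HOM, and 524, 593, 502 and 575 in WT. With DMSO it had 447, 373, 456 and 449 in KO, 520, 541, 446 and 524 in HET, 340, 282, 321 and 200 in HOM, and 436, 496, 480 and 488 in WT. The treatments overlapped in KO and in HET, and did not overlap in HOM and WT.

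None of the 4 MDM4 responses passed: the log2 values were 0.01 ± 0.10 in KO, 0.14 ± 0.09 in HET, 0.57 ± 0.19 in HOM and 0.21 ± 0.09 in WT. The HOM value passed without HOM etoposide replicate 4 (0.59), HOM DMSO replicate 1 (0.66) or HOM DMSO replicate 3 (0.63), and was 0.29 with HOM DMSO replicate 1 alone. Within etoposide MDM4 was 79.5% of the WT mean in KO (-0.33 ± 0.09, adjusted p 4.86e-03) and 75.9% in HOM (-0.40 ± 0.08, adjusted p 7.16e-04), both under the fold threshold. HET was at 102% of the WT mean (0.03 ± 0.07, 95% interval -0.13 to 0.18). It lay above KO by 0.36 ± 0.08 (adjusted p 1.96e-03) and above HOM by 0.42 ± 0.07 (adjusted p 2.51e-04), both under the fold threshold. With etoposide every KO and HOM library thus lay below every HET and WT library for MDM4 too, by less than 1.5-fold between means.

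RCHY1, at chr4:75479037-75514764 (minus strand), encodes another ubiquitin ligase that targets p53. It was highest in HET within each treatment. With DMSO it had 289, 318, 233 and 250 normalized counts in HET, 168, 118, 170 and 146 in KO, 143, 95.6, 99.9 and 72.2 in HOM, and 132, 162, 153 and 127 in WT. With etoposide it had 270, 260, 252 and 282 in HET, 138, 189, 191 and 224 in KO, 205, 233, 211 and 168 in HOM, and 200, 214, 168 and 188 in WT. The treatments overlapped in HET and KO, whereas in HOM and WT every etoposide library lay above every DMSO library. Within each treatment all 4 HET libraries lay above every library of the other genotypes.

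In DMSO the HET level of RCHY1 was 1.90 times the WT mean (log2 0.92 ± 0.14, adjusted p 7.57e-04), and it lay above KO by 0.86 ± 0.15 (adjusted p 1.12e-03). In etoposide it was 1.38 times the WT mean (0.47 ± 0.09, adjusted p 4.04e-04) and above KO by 0.54 ± 0.13 (adjusted p 2.20e-03), both under the fold threshold. The contrast with KO in etoposide passed at 0.63 without KO etoposide replicate 4. KO and WT did not differ past the threshold in either treatment, at -0.07 ± 0.14 in etoposide and 0.06 ± 0.15 in DMSO. The response was 0.29 ± 0.17 in KO, -0.02 ± 0.11 in HET, 1.02 ± 0.23 in HOM (adjusted p 5.12e-03) and 0.42 ± 0.13 in WT (adjusted p 0.0152, under the fold threshold). The HOM value was 0.50 (adjusted p 0.0610) with HOM DMSO replicate 1 alone.

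USP7, at chr16:8892094-8964514 (minus strand), encodes a deubiquitinase that stabilizes both MDM2 and p53. With etoposide it had 1822, 1670, 2062 and 2004 normalized counts in KO, 2051, 1810, 1892 and 1845 in HET, 1471, 1480, 1440 and 1321 in HOM, and 1915, 2010, 1799 and 1873 in WT. With DMSO it had 2140, 2084, 2092 and 2127 in KO, 1753, 1547, 1624 and 1897 in HET, 1507, 1128, 1374 and 707 in HOM, and 1882, 2215, 2730 and 2127 in WT. In both treatments all 4 HOM libraries lay below every library of the other 3 genotypes.

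No USP7 response passed, with log2 values of -0.16 ± 0.07 in KO, 0.16 ± 0.08 in HET, 0.33 ± 0.23 in HOM and -0.22 ± 0.11 in WT. In etoposide HOM was at 75.2% of the WT mean (-0.41 ± 0.06, adjusted p 1.02e-04) and below KO by -0.40 ± 0.08 (adjusted p 1.83e-03), both under the fold threshold. HET and KO were at 100% and 99.5% of the WT mean there. HET in DMSO, however, was at 76.2% of the WT mean (-0.38 ± 0.12, adjusted p 0.0283). It was also below KO by -0.31 ± 0.08 (adjusted p 6.54e-03), both under the fold threshold. In DMSO HOM was below WT by -0.97 ± 0.24 (adjusted p 0.0497) and below KO by -0.90 ± 0.22 (adjusted p 0.0282). Leaving out any 1 library but HOM DMSO replicate 1 ended the call against WT, at -0.74 to -1.06. With HOM DMSO replicate 1 alone these were -0.56 (adjusted p 0.612) and -0.49 (adjusted p 0.0392, under the fold threshold).

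The members' counts were read against the share of all tested genes that passed. With etoposide against DMSO, 1 of the 6 passed in KO (MDM2; 34.4% of all tested genes), 2 in HET (MDM2 and PPM1D; 32.7%), 4 in HOM (MDM2, PPM1D, CCNG1 and RCHY1; 60.1%) and 3 in WT (MDM2, PPM1D and CCNG1; 37%). All of these were rises. With HOM DMSO replicate 1 alone, 1 member passed in HOM, beside 41.3% of all tested genes. With 6 members, none of these counts is read as more than its background, and the members are described by the size of their changes.

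Within etoposide, 3 of 6 members were lower in KO than in WT (29.6% of tested genes passed), 3 were lower in HOM than in WT (32.4%) and none passed between HET and WT (28.5%), where 2 (CCNG1 and RCHY1) had an unadjusted p under 0.05 in limma and none passed by voom. The 3 were MDM2, PPM1D and CCNG1 in both contrasts with WT, which share the WT libraries. The same 3 were higher in HET than in KO (33.4%) and in HET than in HOM (34.6%). No member passed between HOM and KO (14.8%) in limma's test or by voom; 3 (MDM2, CCNG1 and USP7) had an unadjusted p under 0.05 there, and MDM2 and USP7 an adjusted one, without reaching 1.5-fold.

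**Figure D3:**
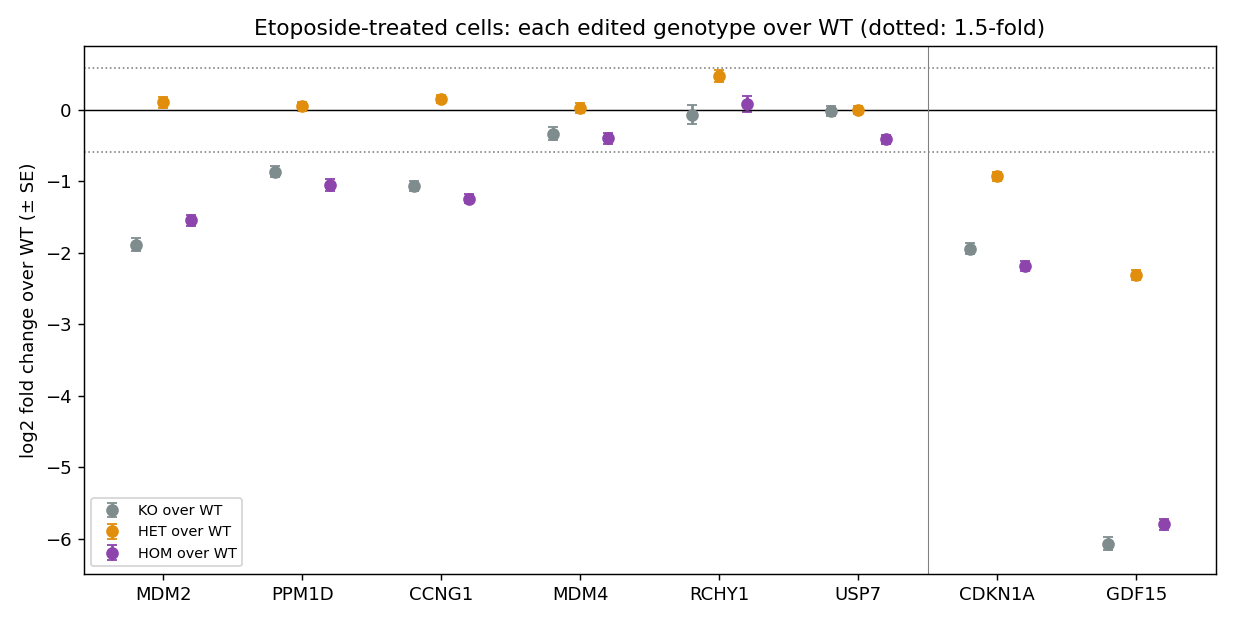
Log2 fold change over WT in etoposide-treated cells (vertical axis, ± SE) for the 6 genes and the p53 targets CDKN1A and GDF15, in KO, HET and HOM; dotted lines mark 1.5-fold. The HET values of MDM2, PPM1D and CCNG1 lie between 0.05 and 0.15, those of CDKN1A and GDF15 at -0.93 and -2.31.

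In DMSO no member passed between KO and WT (7.16% of tested genes) by limma or voom, with PPM1D and CCNG1 at an unadjusted p under 0.05. In the same cells 1 passed between HET and WT (RCHY1; 33.3%) and 2 between HET and KO (CCNG1 and RCHY1; 35%). HOM gave 2 members lower than in WT (PPM1D and USP7; 6.89%) and 5 lower than in KO (all but RCHY1; 28.8%). In the authors' deposited DESeq2 tables every member was lower in HOM in both contrasts at an adjusted p under 0.05, not always by 1.5-fold. With HOM DMSO replicate 1 alone no member passed in either, beside 0.214% and 2.81% of tested genes. The count against WT ran from 0 to 6, and that against KO from 0 to 6, when 1 library was left out: leaving out HOM DMSO replicate 1 gave 6 in each. The number of all tested genes that passed also varied widely with 1 library left out (given below). Neither count of 6 is therefore read as more than its background. Leaving out any 1 of 7 of the 8 libraries ended the MDM2 call against KO, with adjusted p-values of 0.0806 to 0.119, and single libraries ended each of the other calls of HOM in DMSO too. Over the 4 HOM libraries in DMSO, all 6 members were lower in replicates 2, 3 and 4 than in replicate 1, CCNG1 by the most (1434 in replicate 1 against 172 to 792). The share of all genes that were lower in replicates 2, 3 and 4 was not counted, so this is not read as particular to the members. Over all genes, replicate 1 differed from replicates 2, 3 and 4 at a chi-square per degree of freedom of 112 to 254. The share of counts from mtDNA-encoded genes was higher in those same 3 libraries, and its part in these values was not tested.

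**Figure D4:**
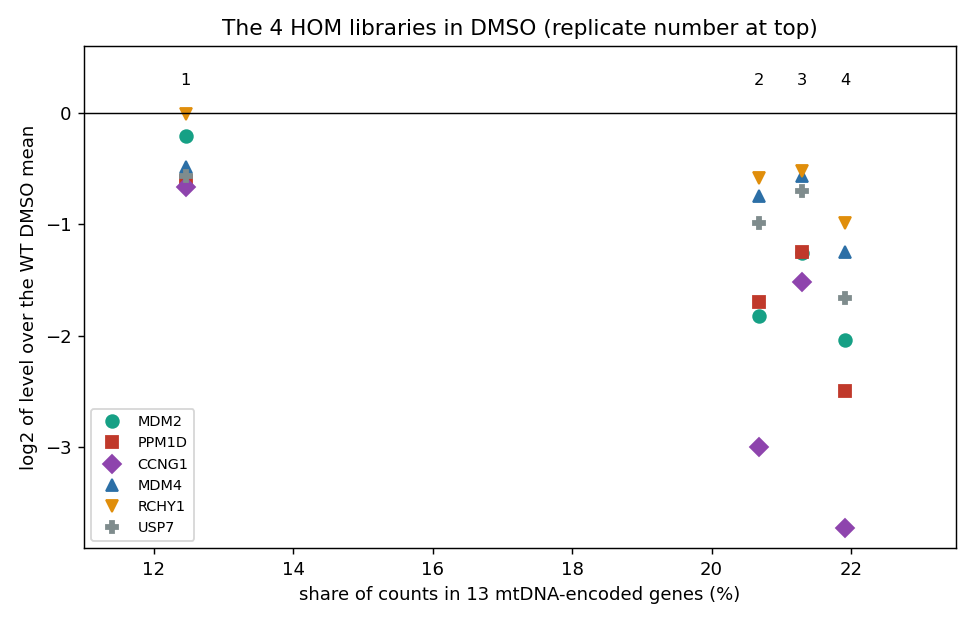
Log2 of each gene's level over the WT DMSO mean (vertical axis) in the 4 HOM DMSO libraries, against the share of counts in 13 mtDNA-encoded genes (horizontal axis, %); 1 symbol per gene, with replicate numbers at the top. Replicate 1 lies at 12.5% with values from -0.66 to -0.01, and the other 3 lie at 20.7% to 21.9% with values from -3.72 to -0.52.

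Differences between responses passed for few members. MDM2 and CCNG1 responded less in KO than in WT (2 of 6; 19.1% of tested genes), none passed between HET and WT (7.13%; 2 at an unadjusted p under 0.05 in limma, none by voom), and MDM2 alone responded more in HET than in KO (18.4%). PPM1D and CCNG1 also had larger responses in HET than in KO, by 0.56 ± 0.13 and 0.54 ± 0.11 (adjusted p 3.16e-03 and 1.11e-03), just under the fold threshold; PPM1D passed without KO etoposide replicate 1, HET etoposide replicate 3 or 4, KO DMSO replicate 4 or HET DMSO replicate 2 (0.59 to 0.63), and CCNG1 passed without KO DMSO replicate 4 or HET DMSO replicate 2 (0.59 each). None passed between HOM and WT (41.2%; 2 at an unadjusted p under 0.05 in limma, none by voom) and MDM2 passed between HOM and KO (27.9%); with HOM DMSO replicate 1 alone, 1 (MDM2) and none passed, beside 17.2% and 1.87%. Leaving out HOM DMSO replicate 1 instead gave 4 members (PPM1D, CCNG1, RCHY1 and USP7) between HOM and WT and all 6 between HOM and KO. The share of all tested genes that passed without that library is not given here, so neither count is read as more than its background.

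CDKN1A, the gene of the p21 cell cycle inhibitor, and GDF15, a secreted stress cytokine, served as p53 target yardsticks. Both also rose with etoposide in KO, by log2 changes of 1.54 ± 0.08 and 1.89 ± 0.23 (adjusted p 9.68e-08 and 4.03e-05). The MDM2 rise in KO was 0.82 ± 0.11. In etoposide, CDKN1A averaged 8875 ± 655 normalized counts in KO, 17880 ± 988 in HET, 7526 ± 407 in HOM and 34111 ± 2041 in WT (SD, n = 4 each). HET was thus at 52.4% of the WT mean for CDKN1A (log2 -0.93 ± 0.07, adjusted p 1.26e-07) and at 20.2% for GDF15 (-2.31 ± 0.07, adjusted p 5.81e-11), where MDM2, PPM1D and CCNG1 were at 107%, 103% and 111%. Both yardsticks were also lower in HET than in WT in DMSO, by -1.58 ± 0.13 and -3.38 ± 0.20. Their responses were larger in HET than in WT, by 0.64 ± 0.14 and 1.07 ± 0.20 (adjusted p 7.18e-03 and 1.88e-03), against -0.38, 0.07 and -0.13 for MDM2, PPM1D and CCNG1, none of which passed. Whether the HET difference itself varies between these genes was not tested.

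A list of 24 p53 targets without the members, of which 23 were tested, gave the frame for these values. In KO 9 rose and 1 fell with etoposide (median log2 change 0.26, against 0.05 over all genes), in HET 22 rose and none fell (1.72 against 0.01), in HOM 14 rose and 3 fell (0.82 against 0.16), or 11 rose and 1 fell with HOM DMSO replicate 1 alone (0.51 against 0.06), and in WT 23 rose and none fell (1.85 against 0.05). For these responses, 34.4% of all tested genes passed in KO, 32.7% in HET, 60.1% in HOM and 37% in WT. The target counts in KO and HOM are not read as more than their background. Within etoposide all 23 were lower in KO than in WT (median -2.11, beside 29.6% of tested genes passing) and in HOM than in WT (-1.71, 32.4%). In HET, 7 were lower and none higher than in WT (median -0.08). That count is not read as more than its background (28.5%). Of these targets, 6 were higher and none lower in HOM than in KO (median 0.27, against 0.01 over all genes), beside 14.8% of tested genes passing.

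Other regulators of p53 changed in both directions, as did tested genes in general. With etoposide against DMSO, 34.4% of all tested genes passed in KO, 32.7% in HET, 60.1% in HOM and 37% in WT. The list counts here and in the next paragraph are to be read beside those shares, and none is read as more than its background. Of 12 other ubiquitin and SUMO ligases, 1 rose and 4 fell with etoposide in KO, 1 rose and 3 fell in HET, 4 rose and 6 fell in HOM (1 and 5 with HOM DMSO replicate 1 alone) and 1 rose and 4 fell in WT. TOPORS, a ligase for both SUMO and ubiquitin, rose by 1.19 ± 0.10 in KO and 1.09 ± 0.24 in WT, and HUWE1 fell in both, with log2 changes of -1.66 ± 0.11 and -0.98 ± 0.11. Of 7 other deubiquitinases, none passed in KO, 1 rose in HET (USP2, 0.99 ± 0.27), 1 rose and 2 fell in HOM (none and 1) and 2 rose in WT (USP15 and USP2, 0.84 ± 0.31 and 0.78 ± 0.27). USP4 and USP15 were lower in KO than in WT within etoposide (-0.74 each).

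Of 8 kinases upstream of p53, 2 fell in KO, 3 fell in HET, 3 rose and 2 fell in HOM (none and 4 with HOM DMSO replicate 1 alone) and 4 fell in WT. PLK1, a mitotic kinase, fell with log2 changes of -1.93 ± 0.10 in KO, -2.56 ± 0.13 in HET, -2.75 ± 0.27 in HOM (-2.06 with HOM DMSO replicate 1 alone) and -3.28 ± 0.13 in WT. Of 8 phosphatase genes and partners, 1 fell in KO, 1 fell in HET, 4 rose and 3 fell in HOM (1 and 2) and 2 fell in WT. PPP2R1A, a scaffold subunit of PP2A, fell in KO (-0.79 ± 0.09), HET (-0.59 ± 0.11), HOM (-1.64 ± 0.24, or -1.04 with HOM DMSO replicate 1 alone) and WT (-0.59 ± 0.10). Among the 8 tested MDM2 inhibitors and partners, RASSF1 rose in KO (0.91 ± 0.07), none passed in HET or WT, and NCL rose and RPL11 fell in HOM. With replicate 1 alone neither of these passed in HOM, and RASSF1 rose (0.79 ± 0.12). Of 6 cofactors and deacetylases, 1 rose and 3 fell in KO, 1 fell in HET, 1 rose and 3 fell in HOM (1 and 3), and 1 rose and 1 fell in WT; SIRT1, a deacetylase that acts on p53, rose by 1.11 ± 0.11 in KO and 1.12 ± 0.13 in WT.

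Across the 8 group means, members resembled one another to different degrees. As a description, with groups that share the HOM DMSO libraries, Pearson's r was 0.95 between MDM2 and PPM1D, 0.82 between MDM2 and CCNG1 and 0.38 between MDM2 and USP7. With HOM DMSO replicate 1 alone these were 0.95, 0.77 and 0.00. The closest pair of members over all libraries was MDM4 with CCNG1, at 0.999, or 0.92 with replicate 1 alone. MDM4 with PPM1D was at 0.94, or 0.87 with replicate 1 alone. Among 12691 genes with a mean of at least 50 normalized counts, the genes most like MDM2 were IKBIP, C12orf45 and SESN1 (r = 0.997, 0.995 and 0.986), and with replicate 1 alone PDE4DIP, IKBIP and ACER2. For PPM1D they were C3orf62, PDPK2P and BTBD10 (0.989 to 0.982), and with replicate 1 alone PPP4R1L, ZFP92 and ABL2. For CCNG1 they were RNF169, AFF4 and NR3C1 (0.992 each), and with replicate 1 alone KIAA0753, RNF169 and CST7. The genes most like MDM4 were AFF4, NR3C1 and RNF169, or HECW2, AFF4 and CD59 with replicate 1 alone. Those most like RCHY1 were ARL1, CD164 and CMTM6, or ZNF350, TTC14 and CMTM6 with it alone. Those most like USP7 were CAST, TMEM165 and LIMS3, or PROSER1, SH3TC2 and CAST with it alone. Most of the named genes thus changed with the 3 libraries.

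Scaling by total counts in place of the authors' size factors moved all genes together. It shifted the median log2 response of all tested genes to 0.35 in KO, 0.20 in HET, 1.13 in HOM and 0.28 in WT, against 0.05, 0.01, 0.16 and 0.05. In these 4 responses, passing genes then split into 5541 rises and 1232 falls in KO, 4435 and 1413 in HET, 10019 and 976 in HOM and 5041 and 1565 in WT, against 3295 and 2485, 3212 and 2288, 5510 and 4608, and 3647 and 2580. In etoposide, genes passing between HET and WT split into 4346 higher and 1395 lower by total counts, against 2336 and 2451, and between HOM and WT into 4171 and 1764, against 2729 and 2725. By total counts the MDM2 responses were 1.13 in KO, 2.44 in HET, 3.35 in HOM and 2.85 in WT, and all passed. The HOM response minus the WT response of MDM2, which did not pass under either scaling, changed sign, to 0.50 by total counts. The lower etoposide levels of MDM2, PPM1D and CCNG1 in KO and HOM than in WT also passed under both scalings. The smaller CCNG1 response in KO than in WT did not pass by total counts (-0.59, adjusted p 0.0715), and neither did the lower levels of PPM1D and USP7 in HOM than in WT in DMSO (adjusted p 0.0516 and 0.0539) or of CCNG1 in HOM than in KO in DMSO (0.0516). Responses that passed by total counts but not by the size factors were those of PPM1D in KO (0.78), RCHY1 in KO (0.60) and WT (0.65), CCNG1 in HET (0.71), and MDM4 and USP7 in HOM (1.58 and 1.34). RCHY1 in HET over WT and over KO in etoposide (0.71 each), MDM2 in HET over WT and over KO in DMSO (0.76 and 0.85) and PPM1D in HET over KO in DMSO (0.63) likewise passed by total counts but not by the size factors. The sign of the USP7 response in WT and KO, and of the CCNG1 response in KO, depended on the scaling: USP7 was 0.00 in WT and 0.14 in KO, and CCNG1 0.29 in KO, by total counts.

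Strand was not stated for the counting, so reads from transcript sequence that a member shares with an overlapping gene may not be told apart. How much transcript sequence is shared was not examined. By position, MDM2 overlaps CPM, AC025423.1, AC025423.2 and AC025423.4, and PPM1D overlaps RNU6-623P. RCHY1 overlaps THAP6, USP7 overlaps AC022167.3 and MDM4 overlaps the pseudogene AL512306.1. AC025423.1 and AC025423.2 lie on the strand of MDM2 itself, and the other overlapping genes on the strand opposite the member. CCNG1 has a processed pseudogene, CCNG1P1, that could share its reads.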

How the data were processed

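Per the labels, poly-A libraries were made from total RNA; the authors used kallisto and DESeq2 with GRCh38 (hg38), per the submitters' processing notes, whose versions are not given in the sources used here. Deposited by the authors were variance-stabilized values on a log2 scale with a floor of 4.43, and 6 contrast tables with a mean signal, log2 fold changes, a test statistic used as a score and p-values per gene. Inverting them gave normalized counts, whose means matched the mean signal in the deposited tables to a relative error of 4.4e-14, and counts that were whole within 0.01. Because the deposited unit is log2, the test was limma 3.58.1 (R 4.3.3) with a trend on log2(normalized count + 1). It ran in the compared groups only, for genes at 10 or more normalized counts in 4 or more libraries. Simulated data were used to test it for the WT response and the KO minus WT difference only, with the same spread in every group. Comparisons with HOM in DMSO were not simulated. The 20 comparisons each used 1 mean per group, and Benjamini-Hochberg adjustment ran over all 16824 tested genes. Replicate numbers did not pair the libraries (see the pairing check among the alternatives). A count of 3, used as a floor, is 2.30 to 6.37 normalized counts per library, which covers counting error only; replicate pairs differed by more than sampling noise (chi-square per degree of freedom at least 1.89). The naming rule took all 6 members, CDKN1A and GDF15 in every comparison; 1 further gene that it lists is not reported here. From each other list, up to the 2 largest passing rises and falls per response could be named, and likeness took the 3 highest correlations. The members and the lists were chosen with earlier results of these data known. Alternatives were another pseudocount, no filter, total-count scaling, the deposited values, all 32 libraries in 1 fit, voom, a replicate block, leaving out each library, and leaving out HOM DMSO replicates 2 to 4. Positions came from GENCODE release 29 and promoters from RefSeq (GRCh38.p14).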

Additional observations from a re-analysis of the deposited data

Results flagged for a closer look

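In KO in DMSO, 1 library stood apart from the other 3 for each of 2 genes: MDM2 was highest in replicate 1 at 313 normalized counts, and MDM4 was lowest in replicate 2 at 373. Both came from 48 combinations of gene and group in which the gap to the nearest library was set against Dixon's critical value for 4 samples, and chance passes about 1 in 20 of such groups.

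The etoposide response differed between genotypes, by limma's test of the difference itself, for 2 genes. MDM2 responded less in KO than in WT (log2 difference -1.80), and more in HET than in KO (1.42) and in HOM than in KO (1.53, or 0.41 and not past the threshold with HOM DMSO replicate 1 alone). CCNG1 responded less in KO than in WT (-0.67).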

How the results depend on the processing

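Of 870 fold changes under alternatives other than leaving out 1 library, 795 kept their direction and side of the threshold, and of 1200 with 1 library left out, 1077 did; no passing value reversed. With HOM DMSO replicates 2 to 4 left out, the number of members passing was 1 for the HOM response, 0 for HOM over WT and 0 for HOM over KO in DMSO, 1 for the HOM minus WT and 0 for the HOM minus KO difference between responses. By total counts it was 3 for the KO response, 2 for HET over WT, 0 for HOM over WT and 4 for HET over KO in DMSO, 1 for HET over WT in etoposide, and 1, 3 and 6 for the KO minus WT, HOM minus WT and HOM minus KO differences between responses. For HOM over WT in DMSO it was 4 with a pseudocount of 5, 1 with no filter, 4 with the deposited values, 5 with all 32 libraries in 1 fit and 4 with voom. With all 32 libraries it was 1 for HET over KO in DMSO, and 1, 1 and 4 for the KO minus WT, HOM minus WT and HOM minus KO differences; the last was 2 with the deposited values and 3 with voom. The cause of these changes was not tested. Over all tested genes, 1159 passed for HOM over WT in DMSO, against 1828 with the deposited values, 8012 with all 32 libraries, 2319 with voom, 36 without HOM DMSO replicates 2 to 4, and 58 to 8529 with 1 library left out. For HOM over KO in DMSO 4840 passed, against 8609 with all 32 libraries, 472 without those 3 and 694 to 9177 with 1 left out. The deposited values gave 3170 in place of 4787 for HET over WT and 1474 in place of 2497 for HOM over KO in etoposide. For the differences between responses, all 32 libraries gave 799 in place of 1200 for HET minus WT, leaving out those 3 gave 2900 in place of 6929 for HOM minus WT, and HOM minus KO had 4691, against 1616 with no filter, 7344 with all 32 libraries, 314 without those 3 and 373 to 8969 with 1 left out. With 1 library left out, the number was 2 to 3 for the WT response, 3 to 5 for the HOM response, 1 to 2 for HET over WT, 0 to 6 for HOM over WT, 0 to 6 for HOM over KO and 2 to 3 for HET over KO in DMSO, 3 to 4 for HET over KO in etoposide, and 1 to 2, 0 to 4, 0 to 6 and 1 to 3 for the KO minus WT, HOM minus WT, HOM minus KO and HET minus KO differences; the other comparisons kept their number.

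For pairing, 13 of 80 same-numbered pairs of libraries had a correlation of deviations over 0.1 (range -0.179 to 0.364), and in 0 of 20 group pairs did every pair. In 22 of the 80 pairs the same-numbered library was the best match among the 4 of the other group. By these values the numbers were not taken to pair the plates. With the replicate block, 0 members passed for HOM over WT in DMSO (adjusted p 0.0814 for both PPM1D and USP7) and 3 for the HOM minus KO difference between responses; in the other comparisons the number stayed within 1.5 times. Over all genes the block gave 21 for HOM over WT in DMSO. Depth limits the lowest levels most, which were 72.2 normalized counts for both MDM2 and RCHY1 in HOM DMSO replicate 4.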

Other observations

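The p53 relatives TP63 and TP73, which encode transcription factors that can bind p53 sites, were not described above. With etoposide TP63 rose by 2.55 ± 0.32 on the log2 scale in KO, 2.08 ± 0.44 in HOM (1.86 with HOM DMSO replicate 1 alone) and 2.15 ± 0.31 in WT. TP63 did not pass in HET. TP73 fell in HET (-0.61 ± 0.16) and WT (-0.97 ± 0.14), and did not pass in KO or HOM. Within etoposide both were higher in KO than in WT, TP73 by 1.21 ± 0.09 and TP63 by 1.03 ± 0.22 (limma, adjusted p 5.96e-08 and 1.12e-03).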
